A study of Homo sapiens with 4 samples.

Results

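HMOX1 and 8 further antioxidant genes known as targets of the transcription factor NRF2 were followed through a miR-34a study in HEK293T, an established line of human embryonic kidney origin in which SV40 large T antigen is expressed. The members are HMOX1, NQO1, GCLM, GCLC, TXNRD1, SRXN1, SLC7A11, FTL and FTH1, taken by gene name from the deposited tables, with reads summed over the transcripts of each name. All 9 were found, among 16489 gene names in all. The 4 groups had 1 library each. RNA recovered with biotin-labelled miR-34a was set against that from a control pulldown, which the labels call NC. Total RNA of cells with a miR-34a mimic, a synthetic duplex that supplies the microRNA, was set against total RNA of cells with a control mimic. The labels used here state no dose, no time and not what the control is. The set was selected on its miR-34a over control ratios, which were known when it was proposed, so those ratios are a description, with no test and no replicate check.

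NRF2, encoded by NFE2L2, is held in the cytoplasm and marked for degradation by KEAP1 with the ligase scaffold CUL3. Oxidants and electrophiles modify KEAP1, NRF2 then accumulates, pairs with a small MAF protein and binds the antioxidant response element of its target genes. BACH1, a repressor that heme displaces from DNA, occupies the same elements and is best known for holding HMOX1 down. miR-34a, a microRNA that p53 induces, guides Argonaute through its seed to complementary sites, mostly after the stop codon, and lowers the RNA or its translation.

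The mature sequence supplied by the mimic and used as bait is shown because the seed, bases 2 to 8 in capitals, decides which RNAs it pairs with. It is that of RefSeq, on chromosome 1, minus strand, of GRCh38.p14 (9151735 to 9151756).
hsa-miR-34a-5p: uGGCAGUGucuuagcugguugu
An RNA site paired with the whole seed reads CACUGCC. Among the 2545 mature human microRNAs listed here from RefSeq, 3 matched this seed exactly, miR-34a-5p, miR-449a and miR-449b-5p. That list need not be complete, so these 3 are not the whole seed family. Sites for the seed in the RNAs of the 9 genes were not analysed here. A pair of deposited tables named for the UTR, of unstated criterion, lists NQO1, SRXN1 and FTH1 and none of the other members.

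The libraries held 42679778 miR-34a mimic and 45493090 control mimic reads, and 546180 miR-34a pulldown and 306996 control pulldown reads. Levels below are RPM, the reads of a gene scaled by TMM to a library of 1000000 reads. The log2 ratios put miR-34a over control, with a 95% counting interval in brackets that covers counting error in these libraries only. A gene is called where its ratio is at least 1.5-fold either way and this interval excludes a fold of 1; it is beyond counting error where the interval alone excludes it. Each library is a bulk extract, in which more RNA per cell and more cells with the RNA cannot be told apart. Of 9 HEK293T markers, 9 had reads in both mimic libraries, with sums of 2781 and 2236 RPM in the miR-34a and control libraries. Beyond counting error 4 were higher and 3 lower, with a median log2 ratio of -0.24; NEFL was called higher (0.86) and IRS4 lower (-5.87, from 14 miR-34a and 887 control reads). Fibroblast markers were listed for 5 of 6 genes, with sums of 68.0 and 75.7 RPM, and DCN was not listed. Of these, 2 were higher and 3 lower beyond counting error, with a median log2 ratio of -0.54. THY1 was called higher (2.34, from 28 miR-34a and 6 control reads), and COL3A1 (-0.63) and LUM (-0.67) were called lower. Blood cell markers were listed for 4 of 7 genes, with sums of 4.46 and 5.28, and PTPRC, HBB and CD3E were not listed. Of these, 0 were higher and 1 lower beyond counting error, HBA1, called lower at -1.42 from 28 and 81 reads. The part of these markers in the results was not tested.

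In total RNA, HMOX1 stood far above the control with the miR-34a mimic, and 7 of the other 8 members were higher beyond counting error, by less than 2-fold, relative to the median gene. 3 of the 9 members were called higher, HMOX1, SLC7A11 and SRXN1, where 6.79% of all 14787 genes with at least 20 reads were. 0 members were called lower, where 2.46% of all genes were. Without a minimum fold, 8 of 9 were higher beyond counting error against 25.2% of all genes, and 0 were lower against 23.2%. The median log2 ratio of the members was 0.41, and that of all genes was 0.00. On the deposited RPKM scale the median of all genes was -0.65 and 7 of the 9 members lay below 0, HMOX1 (1.87) and SLC7A11 (0.19) staying above it; directions in total RNA are therefore relative to the median gene. Since the same contrast was known when the members were proposed, nothing is read from these counts against the background.

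**Figure D1:**
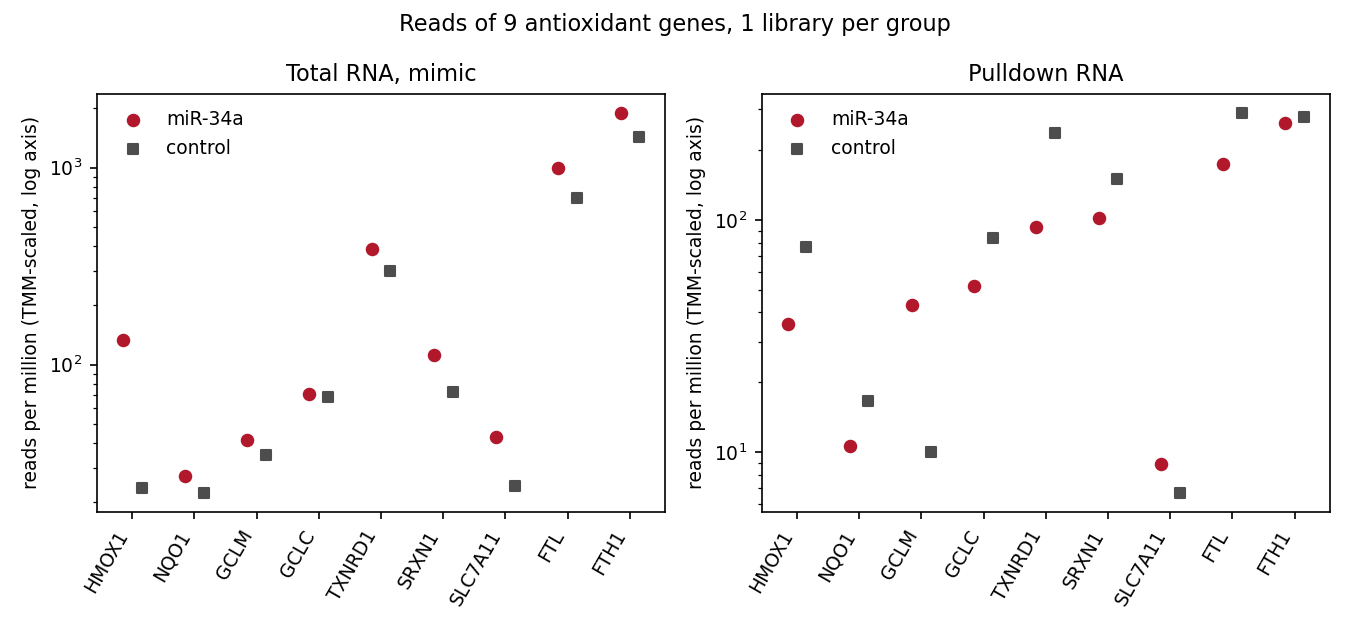
RPM (log axis) of the 9 genes in total RNA (left) and in pulldown RNA (right), with miR-34a as circles and control as squares, 1 library per point. HMOX1 is at 134 against 23.5 in total RNA. In the pulldown it is at 35.8 against 76.7, from 20 and 23 reads, and the interval of that ratio holds 0.

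HMOX1, on chromosome 22 (35381096 to 35394207 in GRCh38.p14, as for all positions below), encodes heme oxygenase 1, the enzyme that opens the heme ring and releases iron, carbon monoxide and biliverdin. It had 5659 reads in the miR-34a mimic library and 1076 in the control mimic library, or 134 and 23.5 RPM. The ratio was 2.51 [2.38 to 2.65], a fold of 5.70 [5.19 to 6.26]. 42 of 14787 genes had a higher ratio. Among the 8018 genes with at least 1000 control mimic reads, a minimum chosen after the value was seen, 0 had a higher one. It has 1 listed transcript, so the ratio rests on no choice between isoforms.

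HMOX1 differed from the other form of the enzyme. HMOX2, which encodes the constitutive heme oxygenase, had 3488 miR-34a mimic and 3468 control mimic reads, a ratio of 0.12 [0.03 to 0.22]. The intervals of the 2 genes lie far apart. BLVRB, which encodes a biliverdin reductase that acts on the product of heme oxygenase, was higher at 0.82 [0.64 to 1.0], with 1359 and 835 reads. ALAS1, the rate-limiting enzyme of heme synthesis outside the red cell lineage, was at 0.58 [0.45 to 0.71].

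**Figure D2:**
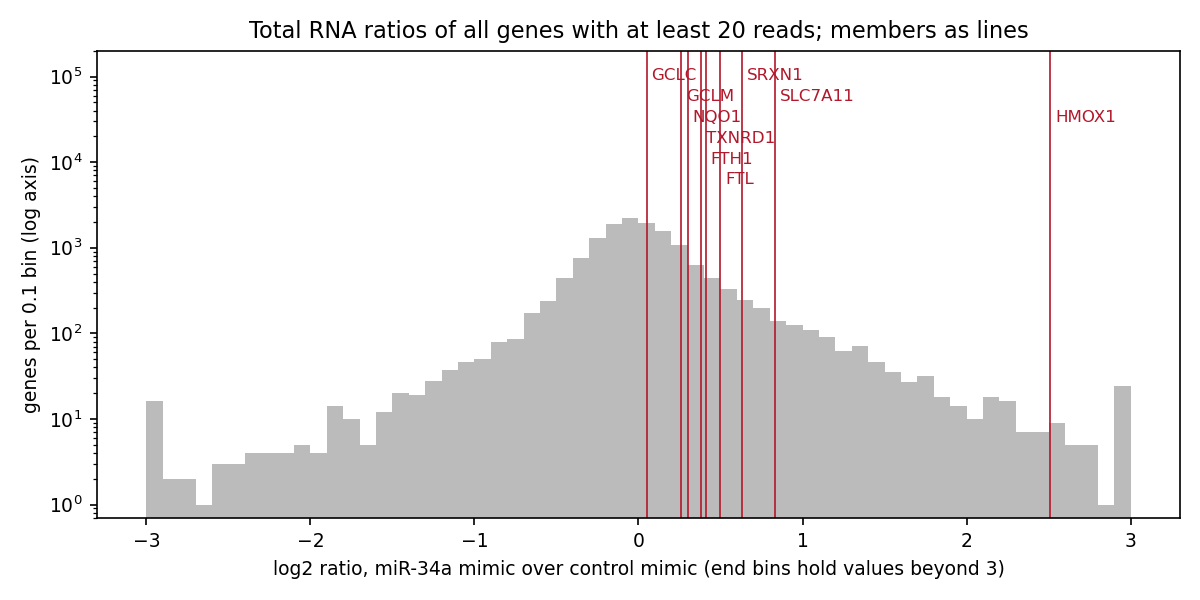
Number of genes (log axis) per 0.1 bin of the log2 ratio in total RNA, miR-34a mimic over control mimic, for the 14787 genes with at least 20 reads; red lines mark the 9 members and the end bins hold values beyond 3. HMOX1 lies at 2.51, apart from the other members, which lie between 0.05 (GCLC) and 0.83 (SLC7A11).

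The genes of cystine uptake and glutathione synthesis did not move alike. SLC7A11, on chromosome 4 (138164097 to 138242349), encodes the light chain of the cystine-glutamate exchanger that feeds glutathione synthesis. It had 1813 miR-34a mimic and 1104 control mimic reads, or 42.8 and 24.1 RPM, a fold of 1.78 [1.60 to 1.98]. Its heavy chain partner SLC3A2, named after its values were seen, had 20352 and 17121 reads and a log2 ratio of 0.36 [0.32 to 0.41], below that of SLC7A11 (0.83 [0.68 to 0.99]).

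The first step of glutathione synthesis is carried out by glutamate-cysteine ligase, whose catalytic subunit is encoded by GCLC and whose modifier subunit is encoded by GCLM. GCLM, on chromosome 1 (93885199 to 93909430), had 41.6 RPM with the miR-34a mimic and 34.7 with the control mimic, from 1762 and 1592 reads, a log2 ratio of 0.26 [0.12 to 0.40]. GCLC, on chromosome 6 (53497341 to 53545101), had 70.5 and 68.1 RPM, from 2985 and 3125 reads, a log2 ratio of 0.05 [-0.05 to 0.15]. GCLC is the only member whose interval held 0 in total RNA. Its 2 listed transcripts were at 0.00 and 0.11. The intervals of the subunits overlap at their ends; with counts taken as deposited, not halved for read pairs, they were 0.16 to 0.36 for GCLM and -0.02 to 0.12 for GCLC and did not. The difference between the subunits was not tested.

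Both members that belong to the thioredoxin and peroxiredoxin branch were higher in total RNA, which does not hold for the branch as a whole. SRXN1, on chromosome 20 (646615 to 653200), encodes sulfiredoxin, which restores overoxidised peroxiredoxins. It had 4744 miR-34a mimic and 3327 control mimic reads, or 112 and 72.5 RPM, a fold of 1.54 [1.45 to 1.65]. That value lies just above the 1.5-fold minimum, and the lower end of its interval lies below it.

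TXNRD1, on chromosome 12 (104215779 to 104350307), encodes cytosolic thioredoxin reductase, the selenoenzyme that keeps thioredoxin reduced. It had 387 RPM with the miR-34a mimic and 297 with the control mimic, from 16363 and 13612 reads, a log2 ratio of 0.38 [0.33 to 0.43]. All 7 listed transcripts were above 0, between 0.32 and 0.44; they overlap in sequence, so their ratios are not separate observations. The thioredoxin gene TXN itself, among the other targets below, was at 0.08 [0.05 to 0.12] in total RNA.

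NQO1, on chromosome 16 (69709401 to 69726560), encodes a quinone reductase and is a widely used readout of NRF2 activity. It had 27.3 RPM with the miR-34a mimic and 22.2 with the control mimic, from 1155 and 1018 reads, a log2 ratio of 0.30 [0.12 to 0.47]. Its 3 listed transcripts were at 0.14, 0.46 and 0.47. 2737 of the 14787 genes had a higher ratio than NQO1, against 42 for HMOX1.

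FTL and FTH1 encode the light and heavy subunits of ferritin, the shell that stores the iron which heme breakdown releases. FTL, on chromosome 19 (48965309 to 48966879), had 995 RPM with the miR-34a mimic and 701 with the control mimic, from 42123 and 32170 reads, a log2 ratio of 0.50 [0.47 to 0.53]. FTH1, on chromosome 11 (61964285 to 61967634), had 1902 and 1428, from 80516 and 65477 reads, a ratio of 0.41 [0.39 to 0.43]. Both genes are known for many processed pseudogenes, with which reads can be shared, so their counts are uncertain. Of such names the mimic table lists FTH1P3, with 39 and 38 reads, and FTLP10, with 6 and 6.

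The pulldown asks which RNAs are recovered with miR-34a above the control. 0 members were called higher, where 4.80% of the 6253 genes with at least 20 reads were. 2 were called lower, TXNRD1 and FTL, where 4.38% of all genes were. Without a minimum fold the members' counts were the same, 0 higher against 5.29% of all genes and 2 lower against 5.36%. 7 of the 9 members had at least 20 reads in both pulldown libraries together. NQO1, with 6 miR-34a and 5 control reads, and SLC7A11, with 5 and 2, did not. The 7 had a median log2 ratio of -0.68, and that of all genes was 0.01. For NQO1 the pulldown lists 2 of the 3 transcripts listed in total RNA. The transcript with most total RNA reads (550 and 542) is missing, so any miR-34a pulldown reads of it are not counted. Over all genes, 300 were called higher and 274 lower; this split was 380 and 185 with TMM factors from all listed genes, 350 and 205 on library totals, and 775 and 80 on deposited RPKM, on which the median of all genes was 0.38.

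HMOX1 had 20 reads in the miR-34a pulldown and 23 in the control pulldown, or 35.8 and 76.7 RPM, a log2 ratio of -1.10 [-2.48 to 0.25]. The interval holds 0, and 5888 of 6253 genes had a higher ratio. With counts taken as deposited, not halved for read pairs, the interval was -2.04 to -0.17 and HMOX1 was called lower. The ground for halving, an excess of even counts, was close to absent among pulldown genes with 10 to 49 reads, of which 51.0% with miR-34a and 52.3% in the control had an even count. SRXN1 had 57 and 45 reads (-0.56 [-1.41 to 0.31]) and GCLC had 29 and 25 (-0.68 [-1.88 to 0.53]). FTH1 was near the control, with 146 and 83 reads (-0.08 [-0.65 to 0.50]).

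TXNRD1 had 52 reads in the miR-34a pulldown and 71 in the control pulldown, or 93.0 and 237 RPM, a ratio of -1.35 [-2.14 to -0.58]. Its 7 transcripts ranged from -2.77 to 0.10, with 3 to 12 miR-34a and 4 to 21 control reads each. The interval of every transcript holds the ratio of the gene, so these low counts show no difference between transcripts. With only the transcript that has most reads, the ratio was -2.32 [-4.43 to -0.54]. FTL had 97 and 87 reads, or 174 and 290 RPM, a ratio of -0.74 [-1.36 to -0.12]. With a 99% interval, with at least 2-fold, or on deposited RPKM, FTL was not called and TXNRD1 still was.

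Of the 7 members with at least 20 pulldown reads, GCLM alone had a log2 ratio above 0 relative to the median gene, with 24 miR-34a and 3 control reads, at 2.10 [-0.29 to 6.04]; FTH1 lay above 0 too on deposited RPKM (0.29) and with TMM factors from all listed genes (0.02). The interval of GCLM holds 0 and spans more than any other among the 7. It excluded 0 once the counts were taken as deposited, without the halving used for read pairs, or on deposited RPKM, so GCLM was called higher under those settings.

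**Figure D3:**
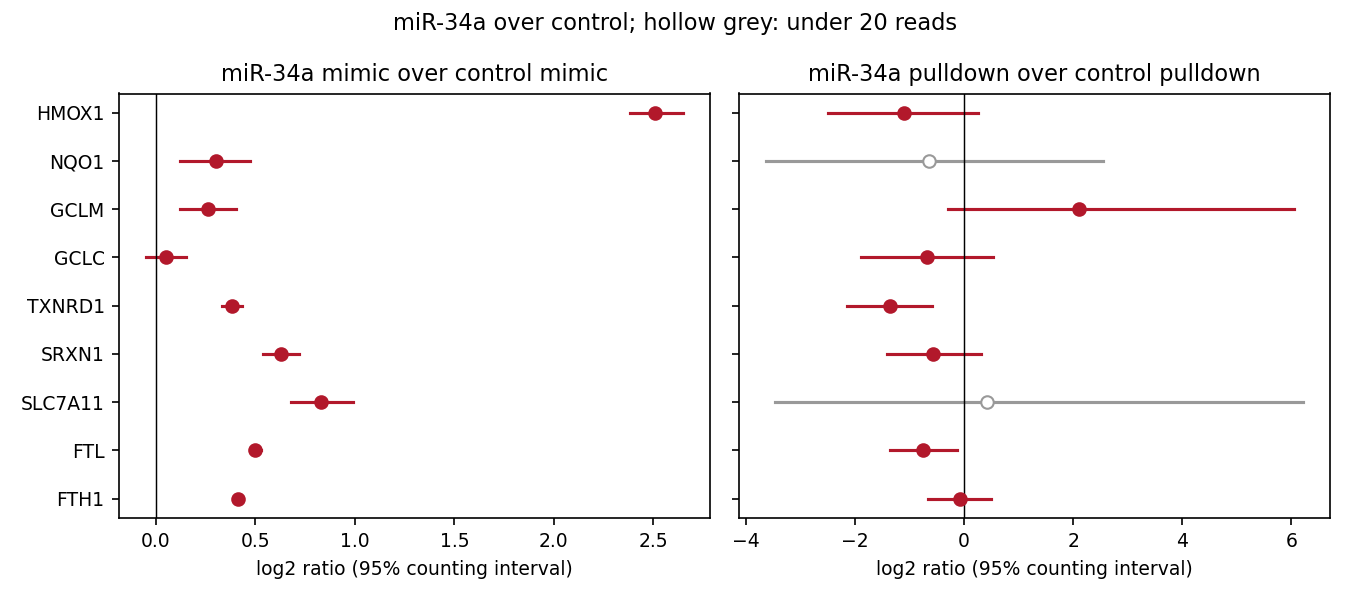
Log2 ratio of each member, miR-34a over control, in total RNA (left) and pulldown RNA (right), with 95% counting intervals as bars; hollow grey points had under 20 reads. In total RNA 8 of 9 intervals lie above 0 relative to the median gene (on deposited RPKM 7 of the 9 ratios fall below 0), and in the pulldown only the intervals of TXNRD1 and FTL exclude 0.

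The share of each RNA in a pulldown was also set against its share in total RNA of the same arm, given as a description. The gap between the arms is the pulldown log2 ratio minus the total RNA log2 ratio, both used to choose the members, so nothing is read from it. Total RNA came from the mimic experiment and is not the input of the pulldown, and these shares were not scaled by TMM. With miR-34a, HMOX1 had 36.6 RPM in the pulldown and 133 in total RNA, a log2 ratio of -1.86 [-2.92 to -0.98]. In the control arm it had 74.9 and 23.7, a ratio of 1.66 [0.68 to 2.50]. These shares were compared over genes with at least 20 pulldown reads and a read in each library compared, 6246 in the miR-34a arm and 6249 in the control arm. Of these, 3.38% in the miR-34a arm and 96.6% in the control arm had a lower ratio than HMOX1.

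Across the 4 libraries the level of HMOX1, in RPM without TMM scaling, was highest with the miR-34a mimic at 133 [128 to 138]. The control pulldown followed at 74.9 [38.1 to 132], the miR-34a pulldown at 36.6 [17.6 to 67.3] and the control mimic at 23.7 [21.7 to 25.7]. The intervals of both pulldown libraries overlap, as do those of the control pulldown and the miR-34a mimic at their ends and those of the miR-34a pulldown and the control mimic.

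Among the other members, TXNRD1 was at -2.01 [-2.62 to -1.46] with miR-34a and -0.37 [-0.89 to 0.10] in the control arm. FTL was at -2.47 [-2.91 to -2.07] and -1.32 [-1.78 to -0.89]. The ferritin RNAs took a small share of either pulldown for their abundance, with FTH1 at -2.82 and -2.41. The median was -0.07 with miR-34a and -0.13 in the control arm, over genes with at least 20 pulldown reads. An RNA of low abundance enters that set only if it is well recovered. An abundant RNA can therefore rank low through this minimum alone.

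**Figure D4:**
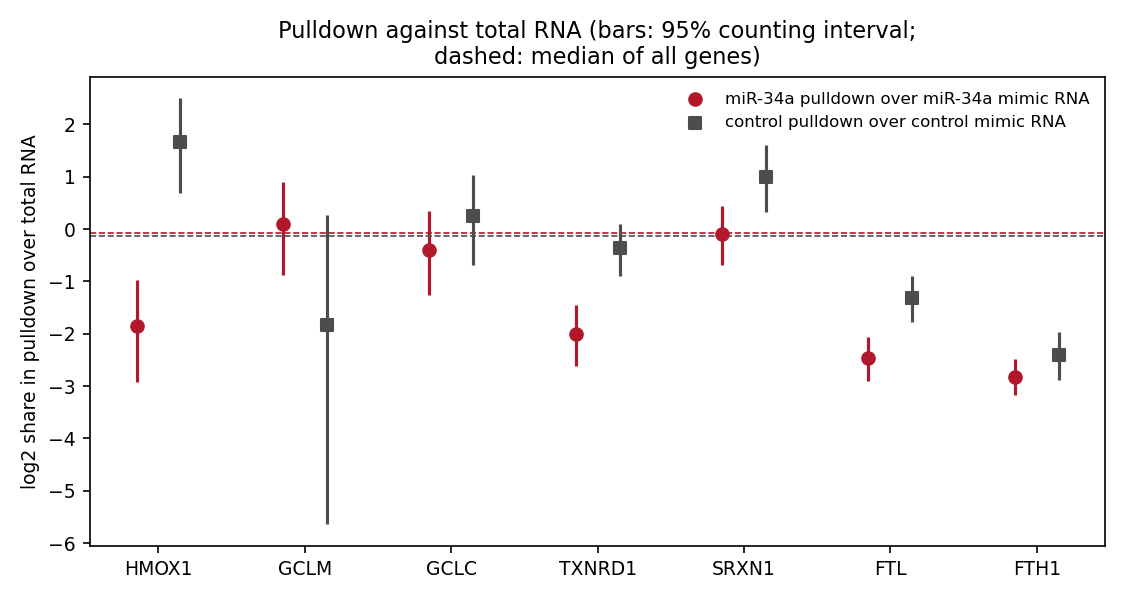
Log2 share of reads in the pulldown over that in total RNA for the 7 members with at least 20 pulldown reads, in the miR-34a arm (circles) and the control arm (squares), with 95% counting intervals. Dashed lines are the medians, -0.07 and -0.13, of all genes with at least 20 pulldown reads and a read in each library compared. HMOX1 is at -1.86 in the miR-34a arm and 1.66 in the control arm; the gap between the arms is the pulldown ratio minus the total RNA ratio, both used to choose the members.

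Further genes of the pathway are read against the shares of all genes called higher and lower, 6.79% and 2.46% in total RNA and 4.80% and 4.38% in the pulldown, and against medians of 0.00 and 0.01. The regulators were mostly close to the control in total RNA. Of 12 NRF2 control and partner genes, 1 was called higher and 0 lower; 6 were higher and 3 lower beyond counting error, with a median log2 ratio of 0.05. NFE2L2 itself was lower at -0.27 [-0.39 to -0.14], with 1822 miR-34a mimic and 2372 control mimic reads, and its restraint KEAP1 was higher at 0.28 [0.20 to 0.36], with 5143 and 4589. BACH1 was at 0.03 [-0.11 to 0.17]. The called gene was MAFF, a small MAF protein, with 353 and 146 reads (1.39 [0.99 to 1.80]); MAFK was at 0.46. SQSTM1, the autophagy receptor p62 that binds KEAP1 and is itself an NRF2 target, was at 0.51 [0.46 to 0.56]. In the pulldown, 1 of 8 measured genes was called, SQSTM1, lower at -0.80 [-1.24 to -0.36] with 183 and 171 reads. NFE2L2 had 37 and 14 pulldown reads (0.50 [-0.82 to 2.0]) and KEAP1 153 and 71 (0.21 [-0.38 to 0.83]).

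Of 30 other NRF2 target genes, 28 had at least 20 reads in total RNA. 3 were called higher and 0 lower, and 14 were higher and 4 lower beyond counting error, with a median of 0.16. The 3 were the carbonyl reductase CBR3 (0.77 [0.39 to 1.15]), the glutathione transferase GSTM4 (0.73 [0.43 to 1.03]), which shares sequence with its paralogs, and OSGIN1, an oxidative stress gene (0.70 [0.13 to 1.28]). In the pulldown, 2 of 14 were called higher and 2 lower. The isocitrate dehydrogenase IDH1 was higher at 2.04 [0.31 to 4.42], from 46 miR-34a and 6 control reads. Of those lower, TXN was at -1.31 [-2.53 to -0.14].

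Of 13 genes of heme breakdown and synthesis, 1 was called higher in total RNA, BLVRB, and 5 were higher and 1 lower beyond counting error, with a median of -0.02. FLVCR1, a heme and choline transporter, was at 0.15. In the pulldown, 0 of 10 were beyond counting error. Of 10 measured genes of iron handling, 0 were called in total RNA, 4 were higher and 3 lower beyond counting error, and the median was 0.05. The transferrin receptor TFRC was at 0.53 and the ferrireductase STEAP3 at 0.52. PCBP1, an iron chaperone that loads ferritin, was at 0.31. In the pulldown, 1 of 7 was called higher and 0 lower, with a median of -0.22. The called gene was IREB2, an iron regulatory protein that holds back ferritin translation, with 46 and 6 reads (2.04 [0.31 to 4.42]). In total RNA IREB2 was at -0.11 [-0.18 to -0.04].

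Antioxidant enzymes that are not standard NRF2 targets were balanced. Of 21 measured in total RNA, 0 were called, 6 were higher and 6 lower beyond counting error, and the median was -0.03. The highest 3 were the glutaredoxins GLRX2 (0.55) and GLRX (0.46) and the peroxidase GPX8 (0.27). In the pulldown 1 of 14 was called, GLRX5, lower at -0.97 [-1.93 to -0.01].

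SLC7A11 is also induced by ATF4, the transcription factor of the amino acid and integrated stress response, so genes of that programme were listed. Of 18 in total RNA, 3 were called higher and 0 lower, and 14 were higher and 0 lower beyond counting error, with a median of 0.35, close to the members' 0.41. The 3 called were the pseudokinase TRIB3 (1.33 [1.17 to 1.5]), the glutathione-degrading enzyme CHAC1 (0.94 [0.29 to 1.61]) and the amino acid transporter SLC1A4 (0.61 [0.49 to 0.73]). ATF4 itself was at 0.13, and any part of ATF4 in these ratios was not tested. In the pulldown 2 of 15 were called, both lower, SLC7A5 (-0.82 [-1.19 to -0.45]) and SLC1A5 (-0.76 [-1.34 to -0.17]), which encode amino acid transporters. The median there was -0.29.

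**Figure D5:**
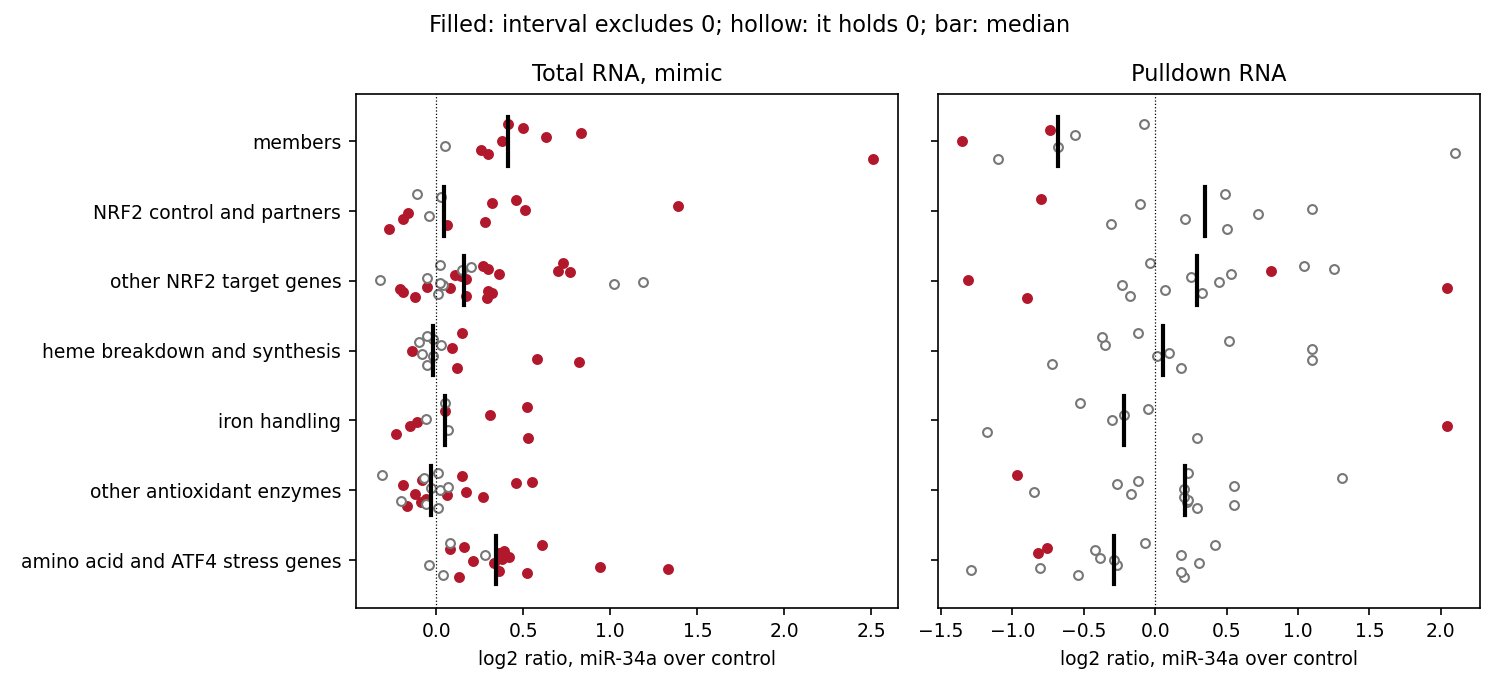
Log2 ratios, miR-34a over control, of the members and of 6 gene lists in total RNA (left) and pulldown RNA (right), for genes with at least 20 reads; filled points have an interval that excludes 0 and bars are medians. In total RNA, relative to the median gene, the medians of the members (0.41) and of the amino acid and ATF4 genes (0.35) lie highest, and the deposited RPKM scale, which moves every ratio alike by -0.64, would put all 7 medians below 0.

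The genes nearest to HMOX1 in both ratios together, by Euclidean distance over 2 comparisons and 6238 other genes, were EEF1A2, ARC, NAB2, TRIB3 and LGALS1. EEF1A2, a translation elongation factor of nerve and muscle, was at a distance of 0.45, with -1.30 in the pulldown and 2.10 in total RNA. ARC, an activity-induced neuronal gene, was at 0.88, with -1.02 and 1.64. NAB2, a corepressor of EGR factors, and TRIB3 were both at 1.19, and LGALS1, galectin 1, at 1.22. Each of the 5 had a lower total RNA ratio than HMOX1 and 11 to 33 control pulldown reads.

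Promoter sequence was examined for the antioxidant response element because NRF2 binds it. RefSeq promoters of GRCh38.p14 were used, 250 bases before to 50 bases after a start site, of which a gene can have several. They matched 6 of the 9 members: NQO1, GCLM, GCLC, TXNRD1 (with 2 promoters), SRXN1 and FTL. HMOX1, SLC7A11 and FTH1 had 0 promoters listed and were not searched. The core TGACNNNGC was searched on both strands; it can overlap the AP-1 site, which was searched as TGACTCA or TGAGTCA. The core was in 13.3% of all 35116 promoters and the AP-1 site in 4.95%. Members with a match are shown in 30-base windows on the gene's strand, with the match in capitals.
GCLM, chr1:93909445-93909474, minus strand: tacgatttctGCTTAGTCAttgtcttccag
TXNRD1, first promoter, chr12:104215670-104215699, plus strand: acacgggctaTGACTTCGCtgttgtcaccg
TXNRD1, first promoter, chr12:104215761-104215790, plus strand: gcgtccttcgGCTCCGTCAgttcccacagg
TXNRD1, second promoter, chr12:104286920-104286949, plus strand: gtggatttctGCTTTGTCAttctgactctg
The GCLM match and the match in the second TXNRD1 promoter read on the opposite strand, as does one of the 2 in the first TXNRD1 promoter. NQO1, GCLC, SRXN1 and FTL had 0 matches to the core in this window, and 0 of the 6 members had an AP-1 match. Of the other NRF2 targets, 8 of the 21 with a promoter held the core in any of their promoters. That count is per gene and the 13.3% is per promoter, so they cannot be compared directly. With a match, GCLM and TXNRD1 had total RNA ratios of 0.26 and 0.38. With none, GCLC was at 0.05, NQO1 at 0.30, FTL at 0.50 and SRXN1 at 0.63, so the values of members with and without a match overlap; elements outside the window were not searched.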

How the data were processed

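Read counts per RefSeq transcript were deposited as whole numbers, not normalized, with an RPKM value beside each count, per the file headers. Per the submitters' processing notes the tools were Bowtie2 and edgeR and the build hg38; filters, versions and the use of strand are not stated there. The lowest control count is 1, so RNAs absent from a control were not analysed here. The deposited RPKM gives all transcripts of a gene 1 length (100% of 6514 genes, within 0.1%) that follows gene span weakly (Spearman 0.13 across genes), so the planned order of levels between genes was not made.

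Reads were summed per gene name; 93 transcripts named as dates were renamed by accession. Totals were scaled with TMM from genes with at least 20 reads (edgeR 4.0.16, DESeq2 1.42.0 as an alternative, R 4.3.3). Intervals are exact conditional binomial (scipy 1.17.1, Python 3.11.15) on counts divided by 2, because 96.3% of low miR-34a mimic and 96.0% of low control mimic counts (2 to 9 reads) were even. In the pulldown this was 61.7% for miR-34a and 73.5% for control. At 10 to 49 reads it was 83.6% and 81.9% in the mimic libraries and 51.0% and 52.3% in the pulldown, where halving therefore rests on low counts and decides the calls of HMOX1 and GCLM. PCR reads are not independent molecules, so intervals cover counting error only. The interval script was tested on simulated data drawn with the same halving, so that check cannot tell whether halving is right. With 1 library per group no test and no p-value was computed.

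Genes named are the 9 members, the 3 of each list farthest from 0 beyond counting error in each comparison, NFE2L2, KEAP1, BACH1, HMOX2 and the 5 genes nearest to HMOX1. One gene that this rule names is not reported here. The members and lists were chosen with earlier results of these data known.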

Additional observations from a re-analysis of the deposited data

How the results depend on the processing

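On deposited RPKM, where every total RNA ratio moved by the same -0.64, 1 member was called higher (HMOX1, at 1.87) and 1 lower (GCLC), and 7 of the 9 ratios changed sign: SRXN1 was at -0.01, FTL at -0.14, FTH1 at -0.23, TXNRD1 at -0.26, NQO1 at -0.34, GCLM at -0.38 and GCLC at -0.59. With at least 2-fold, 1 member was called higher in total RNA, HMOX1, and 1 lower in the pulldown, TXNRD1. In the pulldown, 1 member, GCLM, was called higher on deposited RPKM and 1, the same gene, with counts as deposited for the intervals, under which HMOX1, TXNRD1 and FTL were called lower. 1 was called lower on deposited RPKM and 1 with a 99% interval, TXNRD1 in both. Library totals, DESeq2 size factors, TMM over all listed genes (added after seeing the data) and other read minimums left the called members as they were in both comparisons, and so did leaving 10 genes out of the pulldown totals. Over all genes, counts as deposited for the intervals gave 654 higher and 623 lower in the pulldown, and deposited RPKM gave 196 higher and 8177 lower in total RNA, where the main counts were 1004 and 364. Each group had 1 library and the pulldown counts of NQO1, SLC7A11 and GCLM were low, which limits what the pulldown can show. No paired analysis was possible because each group has 1 library, and leaving out a replicate could not be run for the same reason.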
